A study of Mus musculus with 7 samples.

Results

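The P3 macrophages are the cells that the deposited cell table names "Macrophages (P3)" in its cell type column, and that exact name was the only criterion used to choose them. They number 2095 of 28644 cells. Beside them the same table holds 1521 cells named "Monocytes (P1-P2)" and 3459 named "Macrophages (P5)", called P1-P2 and P5 here, and 402 proliferating macrophages. How the names were assigned, and what the P numbers stand for, is not given in the sources used here.

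The cells came from brain hemispheres of mice carrying CT-2A glioma, a mouse glioma line injected into the brain at 8 to 12 weeks of age. Live cells positive for CD45, CD11b or both were sorted after freezing and thawing, and each mouse gave 1 droplet library read from the 5′ end of transcripts. The 4 Siglece KO mice (KO) carried the Sall1CreERT2 driver, a tamoxifen-dependent Cre recombinase expressed from the Sall1 gene, together with 2 floxed Siglece alleles. The 3 WT mice carried the floxed alleles and no Cre. All 7 mice received 2.5 mg tamoxifen per injection, daily from day 7 after tumour injection to day 21 and every other day thereafter, so tamoxifen, the floxed alleles and the tumour are shared by all groups. Sall1 is a transcription factor gene of microglia, so the driver is aimed at microglia and not at cells from blood.

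In inflamed tissue and tumours, monocytes that carry the chemokine receptor Ccr2 and the surface protein gene Ly6c2 leave the blood and mature into macrophages. During this change they lose Ly6c2 and Plac8 and gain complement C1q, the F4/80 gene Adgre1 and scavenger receptors. Where oxygen is short, hypoxia-inducible factors bind a short core sequence near genes of glycolysis and oxygen sensing, whereas interferons act on many antiviral genes through an element with a repeated GAAA.

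The promoters below come from 2 gene groups described further on, hypoxia genes and interferon genes, of which some members differed between P3 and its neighbours. They are the 250 bases upstream of the RefSeq transcription start (build GRCm38.p6), written 5′ to 3′ on the strand of the gene. Capitals in the first pair mark the hypoxia core, ACGTG or GCGTG on either strand, and in the second pair the interferon element, GAAA, any 2 bases and GAAA again, on either strand. Egln3 (chr12:54203875-54204124, minus strand) codes for an oxygen-dependent prolyl hydroxylase. Ankrd37 (chr8:45999851-46000100, minus strand) is a target of hypoxia-inducible factor. Isg15 (chr4:156200819-156201068, minus strand) codes for a ubiquitin-like protein and Ifit1 (chr19:34640639-34640888, plus strand) for a protein that binds viral RNA.
Egln3: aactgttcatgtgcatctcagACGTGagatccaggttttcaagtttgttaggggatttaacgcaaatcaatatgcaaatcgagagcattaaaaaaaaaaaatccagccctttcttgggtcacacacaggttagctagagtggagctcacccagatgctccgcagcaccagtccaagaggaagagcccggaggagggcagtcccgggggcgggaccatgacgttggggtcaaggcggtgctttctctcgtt
Ankrd37: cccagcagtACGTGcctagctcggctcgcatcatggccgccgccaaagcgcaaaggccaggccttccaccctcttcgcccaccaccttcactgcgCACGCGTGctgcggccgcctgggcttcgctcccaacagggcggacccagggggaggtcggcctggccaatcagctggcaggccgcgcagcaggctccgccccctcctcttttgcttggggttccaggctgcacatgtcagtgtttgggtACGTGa
Isg15: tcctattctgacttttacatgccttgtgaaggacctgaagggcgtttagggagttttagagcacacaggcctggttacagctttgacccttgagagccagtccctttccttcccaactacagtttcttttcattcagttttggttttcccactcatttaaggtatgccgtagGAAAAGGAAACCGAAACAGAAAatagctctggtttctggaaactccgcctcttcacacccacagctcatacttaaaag
Ifit1: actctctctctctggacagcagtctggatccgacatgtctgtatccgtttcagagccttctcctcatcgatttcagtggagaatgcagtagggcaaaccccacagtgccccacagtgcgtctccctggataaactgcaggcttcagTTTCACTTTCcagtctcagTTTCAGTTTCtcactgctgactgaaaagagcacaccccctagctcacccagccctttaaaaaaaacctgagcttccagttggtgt
The Egln3 window held 1 hypoxia core and the Ankrd37 window 4, while the Isg15 window held 3 interferon elements, which overlap each other, and the Ifit1 window 2. Among the 24 genes of the hypoxia and glycolysis list found in the RefSeq table, 25 of 33 windows (75.8%) held a hypoxia core, against 38.6% of all 32851 windows. The interferon response list had the interferon element in 14 of 26 windows (53.8%), against 2.98% of all windows. A match describes the letters of a window and does not show that a factor binds there.

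P3 cells yielded 64, 358, 136 and 255 cells in KO mice 1 to 4 and 276, 411 and 595 in WT mice 1 to 3. Values below are UMIs (unique molecular identifiers, counted transcripts) summed over the cells of 1 type in 1 mouse and scaled to the same total in every sum (CPM), in the order KO 1 to 4 and WT 1 to 3 wherever 7 values stand together. The library of KO mouse 1 stood apart. It held the fewest cells of the 7 libraries, 1410 of a range up to 5856, and a median of 13940.5 UMIs per P3 cell against 4841.5 to 8206.5 in the other 6 mice. Results that rest on this mouse are given with and without it, or beside its own value. Of the P3 cells, 75 carried a barcode that also occurs in another library, among 460 such barcodes in all.

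Tgfbi and Ccr2 are the markers given for P3, and both were present. Tgfbi, coding for a secreted matrix protein induced by TGF-beta, stood at 1925, 2108, 2848, 2471, 2296, 2343 and 1456 CPM in P3, which overlaps its level in P1-P2. Ccr2, the receptor that draws monocytes from blood, stood at 197, 351, 465, 209, 323, 264 and 189 CPM. Neither was highest in P3. Tgfbi averaged 2244 CPM in P1-P2, 2207 ± 440 in P3 (SD, n = 7) and 1311 in P5, and Ccr2 averaged 370, 285 ± 101 and 84.8 CPM. Against P5, Tgfbi was higher in P3 in 7 of 7 mice by a log2 difference of 0.74 ± 0.30 and Ccr2 by 1.82 ± 0.50. Both were therefore higher in P3 than in P5, Tgfbi by less than a log2 difference of 1. A UMI of Tgfbi was found in 97.2% of P3 cells and 92.1% of P5 cells. Neither marker separated P3 from P1-P2, where the differences were -0.03 ± 0.15 for Tgfbi and -0.41 ± 0.41 for Ccr2.

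Of 7 macrophage markers, all were detected in P3, with a summed level of 3197 to 5402 CPM in the KO and 4878 to 6484 CPM in WT mice. Markers listed for other cells were also present. The 9 tumour or stromal markers summed to 1372 to 3688 CPM in the KO and 1478 to 1795 CPM in WT mice, and in KO mouse 1 this exceeded the macrophage sum of 3197 CPM. Vim, the vimentin gene, which many leukocytes express, averaged 2071 CPM of it in P3, while Col3a1, the next highest, averaged 5.54 CPM. The 6 plasmacytoid dendritic cell markers summed to 452 to 769 CPM in the KO and 876 to 1053 CPM in WT mice, with no overlap. Of these, Bst2 averaged 631 CPM and Tcf4 88.1 CPM in P3, and Ccr9, Cox6a2, Pacsin1 and Klk1 averaged 2.71, 1.88, 1.33 and 13.5 CPM. The 6 border-associated macrophage markers summed to 350 to 811 CPM in the KO and 466 to 865 CPM in WT mice. The 9 microglia markers summed to 443 to 594 CPM in the KO and 527 to 750 CPM in WT mice, and Sall1 itself averaged 0.340 CPM in P3 against 111 CPM in the cell type where it was highest. The 9 T cell markers summed to 45.4 to 98.5 CPM in the KO and 26.3 to 38.1 CPM in WT mice, with no overlap. Of all single genes tested between genotypes in P3, 3.08% had all KO mice above all WT mice and 3.35% all below. Many marker sums were compared, and the T cell and plasmacytoid sums were not tested. The 6 B cell markers summed to 20.1 to 270 CPM in the KO and 21.4 to 168 CPM in WT mice. The 4 platelet markers summed to 16.8 to 318 CPM in the KO and 174 to 179 CPM in WT mice, and Pf4 averaged 171 CPM of it. The 5 mast cell and basophil markers were all at 0, and of the border-associated macrophage markers Lyve1 and Cd209f were at 0.

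Siglece, coding for a sialic acid-binding inhibitory receptor and the gene deleted in the KO mice, was expressed in P3 at 16.9, 14.5, 20.3 and 24.4 CPM in the KO and 22.5, 21.1 and 15.6 CPM in the WT mice. The genotypes overlapped. These levels rest on 16, 29, 23 and 39 UMIs in the KO and 45, 58 and 62 in the WT mice. The KO over WT log2 change was -0.03 (SE 0.23, adjusted p = 1.00, edgeR quasi-likelihood test), and its sign changed with the setting. Sall1, which drives the recombinase, gave 1 UMI in P3 cells of the 4 KO mice and 5 in those of the WT mice. In the cells named Microglia, where the driver is aimed, Siglece gave 2, 1 and 0 UMIs from 10, 7 and 15 cells in KO mice 1, 2 and 4, and 18, 16 and 4 UMIs from 44, 48 and 39 cells in the WT mice, too few to check the labels firmly. Reads outside the floxed part of the gene would not report the deletion.

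Siglece differed more between the cell types than between the genotypes of P3. P5 averaged 61.7 CPM and P1-P2 20.5 CPM against 19.3 ± 3.72 in P3. P3 was lower than P5 in 7 of 7 mice, with a mean log2 difference of -1.62 ± 0.32, and did not differ in a fixed direction from P1-P2. Of the 18 genes of the Siglec and inhibitory receptor list, 15 were expressed highly enough in P3 or P5 to be compared. Of these, 2 were counted as lower in P3, Siglece and the related receptor gene Cd22 (5.73 CPM in P3). Cd22 was too low in P3 to enter on that level, so it entered through P5 alone and could hardly be counted as higher. Of all genes compared with P5, 1.73% were counted as lower. Because of Cd22, the count of 2 was not weighed against this share.

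The comparison of P3 with its neighbours was made within each mouse, as the log2 ratio of CPM plus 1. Because the names may come from the same expression values, these differences describe P3 and carry no p-value. A gene was counted when the mean over 7 mice was at least 1 in size, a 2-fold difference, with the same sign in every mouse. Of 7956 genes with a mean of at least 10 CPM in P3 or P1-P2, 70 (0.88%) were counted as higher and 78 (0.98%) as lower in P3. Of 8229 genes compared with P5, 157 (1.91%) were higher and 142 (1.73%) lower. P3 was therefore nearer to P1-P2 than to P5 by this count. These shares are the background for the counts of list members below. The split between higher and lower changed with the setting: against P1-P2 it was 110 higher and 84 lower without KO mouse 3, 131 and 81 with cells thinned to the same depth, 25 and 58 with a pseudocount of 5 CPM, 17 and 53 with a minimum of 50 CPM and 158 and 88 with no minimum. Most genes counted in 1 comparison were counted only there: 130 genes were higher and 124 lower than in P5 without being counted against P1-P2, and 46 were higher and 57 lower than in P1-P2 without being counted against P5. With both steps counted, 21 genes stepped down and 18 stepped up from P1-P2 through P3 to P5. Without the condition on size, 231 of 8354 genes (2.77%) stepped down and 227 (2.72%) stepped up in every mouse.

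**Figure D1:**
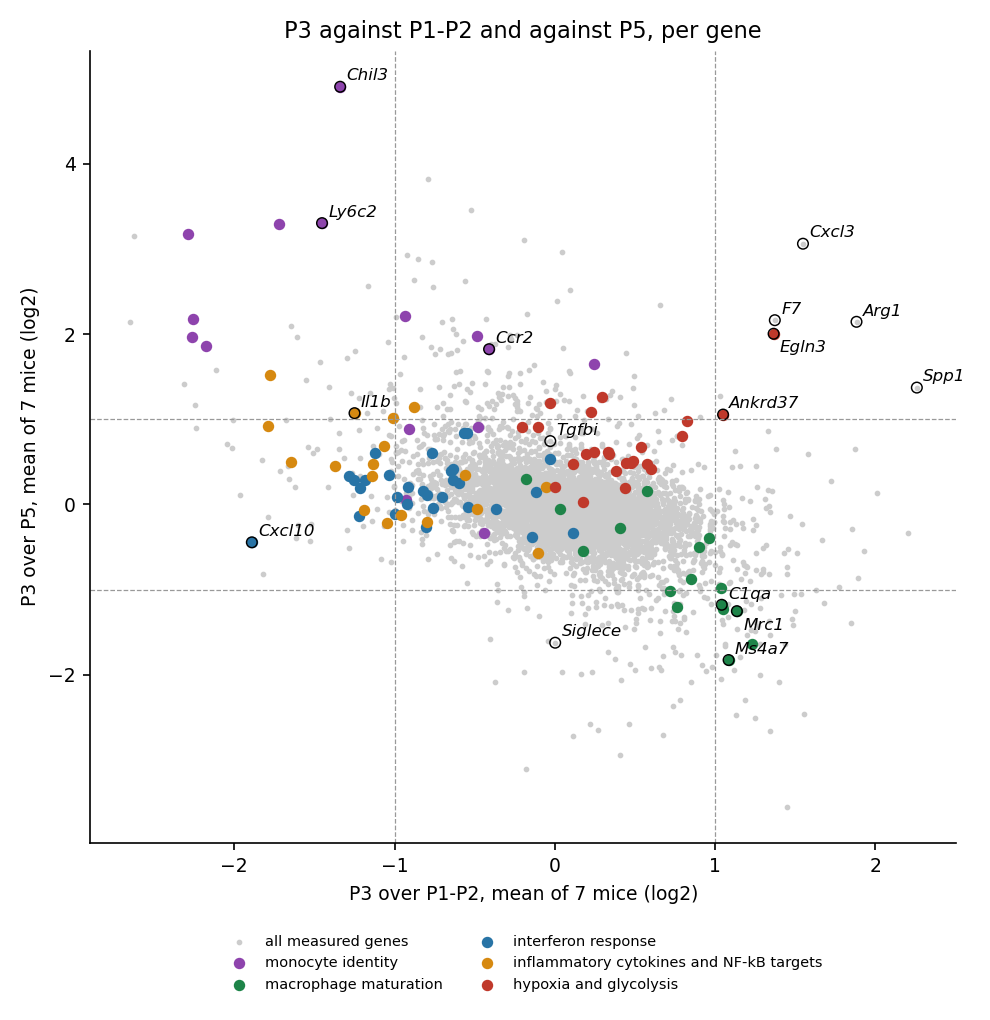
Each point is 1 of 8354 genes, plotted by its log2 difference of P3 over P1-P2 (horizontal) and P3 over P5 (vertical), as means of 7 mice, with dashed lines at a difference of 1 and 5 gene lists in colour. Arg1, Spp1, Egln3, Ankrd37, F7 and Cxcl3 lie beyond both lines at the upper right, monocyte genes at the upper left and maturation genes at the lower right.

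Monocyte genes lay between the neighbours. Ly6c2 stood at 460, 2029, 1499, 1155, 2069, 669 and 1340 CPM in P3, below P1-P2 and above P5 in every mouse. Its means were 3388, 1317 ± 617 and 130 CPM in P1-P2, P3 and P5. Chil3, coding for a secreted chitinase-like protein of monocytes, averaged 3134, 1196 ± 738 and 44.6 CPM. Plac8, a gene of monocytes and other blood cells, averaged 1171, 251 ± 121 and 25.1 CPM. Over the 15 genes of the monocyte list, 7 were counted as lower than in P1-P2 (among them Ly6c2, Plac8, Vcan, Chil3 and Hp) and 11 as higher than in P5. The list medians were -0.93 and 1.97, against 0.09 and -0.06 over all genes compared.

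S100a6, coding for a calcium-binding protein, and F13a1, coding for a coagulation factor subunit, were nearer to P1-P2 than to P5. S100a6 averaged 1459, 1035 ± 369 and 252 CPM, and F13a1 381, 445 ± 140 and 157 CPM, with P3 the highest of all 23 cell types for F13a1. F10, the gene of coagulation factor X, averaged 231, 166 ± 50.7 and 17.2 CPM.

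Macrophage genes showed the reverse. C1qa stood at 1594, 2036, 1678, 2186, 1908, 3022 and 2426 CPM in P3, above P1-P2 and below P5 in every mouse. Means for C1qa were 1081, 2121 ± 489 and 4710 CPM. Ms4a7, a gene of tissue macrophages, stood at 141, 117, 126, 402, 618, 327 and 142 CPM with means of 113, 268 ± 191 and 810 CPM across P1-P2, P3 and P5. KO mouse 4 and WT mice 1 and 2 were high and the other 4 mice low. Of 16 maturation genes measured, 6 (C1qa, C1qc, Mrc1, Ms4a7, Cd63 and Stab1) were counted as higher than in P1-P2 and 7 as lower than in P5, with list medians of 0.88 and -0.93. Csf1r, the receptor for the growth factor on which macrophages depend, averaged 693, 713 ± 134 and 733 CPM.

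**Figure D2:**
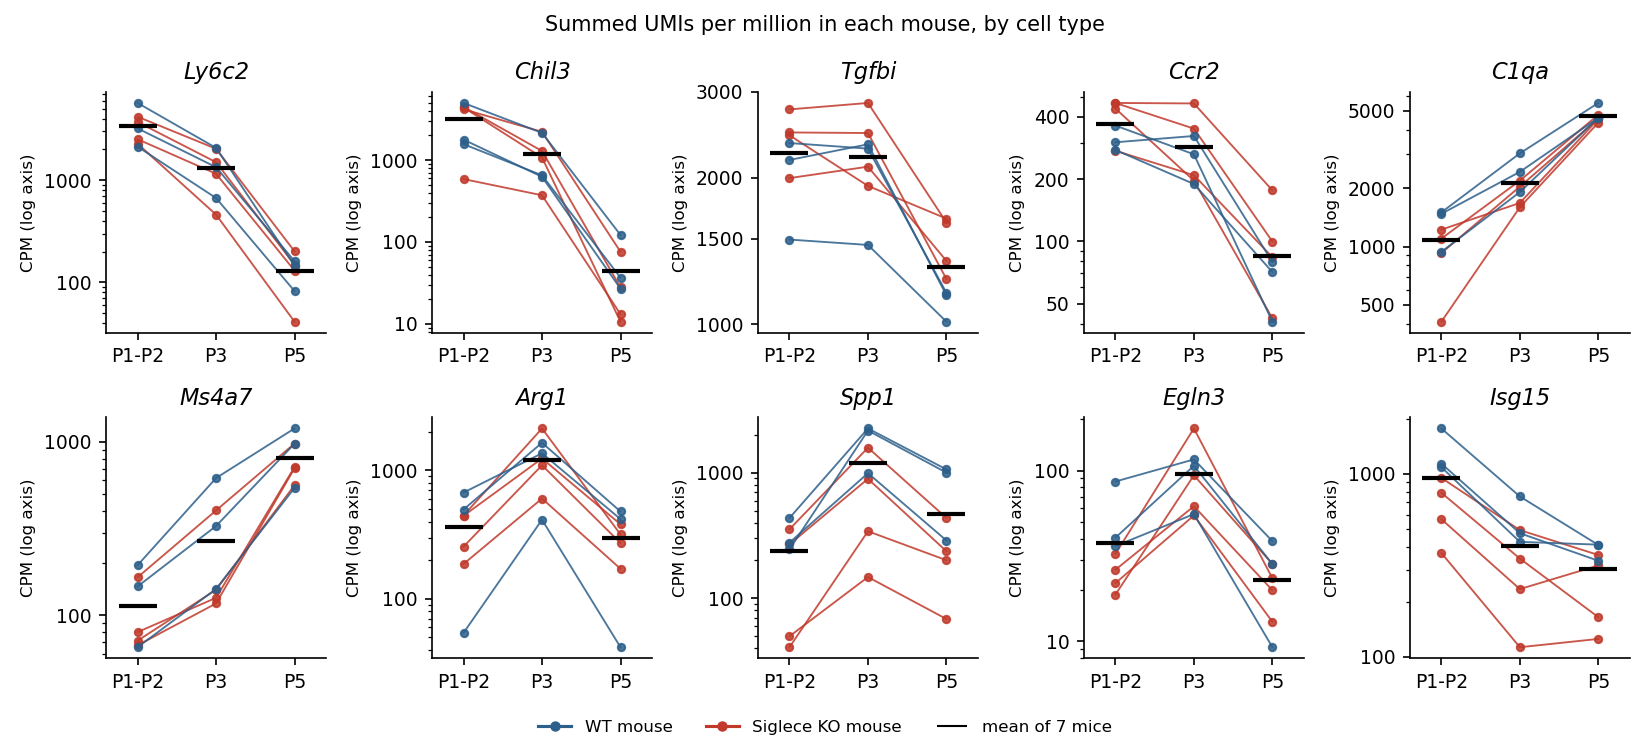
CPM on a log axis for 10 genes in P1-P2, P3 and P5, with 1 line per mouse coloured by genotype and a black bar for the mean of 7 mice. Ly6c2 and Chil3 step down and C1qa and Ms4a7 step up, whereas Arg1, Spp1 and Egln3 are highest in P3 in every mouse.

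Of the 10 genes with the largest counted difference above P1-P2, Spp1, Arg1, Cxcl3 and Egln3 were also counted above P5, and Gpnmb was higher than in P5 by 0.65 ± 0.46. Others lay between the neighbours. Cd81, a tetraspanin gene, stood at 205, 101, 38.9, 122, 117, 213 and 144 CPM in P3, above P1-P2 (42.1 CPM on average) and below P5 (673 CPM) in every mouse. Itga6, an integrin gene, averaged 22.8, 64.4 ± 24.2 and 131 CPM across P1-P2, P3 and P5, and Tmem119, known as a microglial membrane protein, 45.7, 131 ± 51.3 and 227 CPM. In the other direction, Ly6a2 averaged 100.3, 16.2 ± 12.6 and 0.637 CPM, and Hp, coding for the haemoglobin scavenger haptoglobin, 400.5, 142 ± 88.8 and 13.9 CPM. Ly6i, a relative of Ly6c2, averaged 584, 358 ± 167 and 74.5 CPM, and Hopx, coding for a homeodomain protein, 181, 111 ± 50.4 and 14.1 CPM.

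Genes of P5 were often still low in P3. Fcrls, coding for an Fc receptor-like protein, averaged 18.6, 57.5 ± 45.3 and 313 CPM, and Vcam1, an adhesion molecule gene, 16.3, 20.2 ± 14.9 and 117 CPM. Ccl8 stood at 1.06, 5.01, 12.4, 46.9, 0, 57.9 and 6.79 CPM in P3 against a mean of 151 CPM in P5. KO mouse 4 and WT mouse 2 were the high values for Ccl8. Col14a1, a collagen gene, Cadm1, an adhesion gene, and Blnk, a signalling adaptor gene, were each lower than in P5 with log2 differences of -2.51 ± 0.56, -2.48 ± 0.48 and -2.09 ± 0.46.

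Few genes were highest in P3. Only 6 of 8354 genes (0.0718%) were counted as higher than in both neighbours: Arg1, Spp1, Egln3, Ankrd37, F7 and Cxcl3. None was counted as lower than in both, although thinning gave 1 such gene. Without the condition on size, 50 genes (0.599%) were highest in P3 in every mouse and 16 (0.192%) lowest.

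Arg1, coding for arginase, which breaks down the arginine that T cells need, stood at 2127, 1241, 604, 1099, 413, 1362 and 1645 CPM in P3. In P1-P2 it stood at 445, 443, 187, 255, 54.2, 673 and 496 CPM, and in P5 at 317, 381, 171, 272, 41.9, 418 and 479 CPM. Every mouse showed the peak, although WT mouse 1 was lowest in all 3 cell types. P3 exceeded P1-P2 by 1.88 ± 0.61 and P5 by 2.14 ± 0.62 on the log2 scale.

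Spp1, coding for the matrix protein and cytokine osteopontin, stood at 1583, 342, 148, 894, 2166, 992 and 2253 CPM in P3. The values spread widely, with KO mice 2 and 3 low. Its log2 difference was 2.26 ± 0.63 over P1-P2 and 1.37 ± 0.46 over P5. Egln3 stood at 176, 54.6, 61.8, 93.8, 55.6, 116 and 107 CPM in P3, against means of 37.5 CPM in P1-P2 and 23 CPM in P5. The differences were 1.37 ± 0.75 and 2.00 ± 0.49.

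Ankrd37 averaged 37.9 ± 22.0 CPM in P3 against 18.1 in P1-P2 and 18.9 in P5. KO mouse 1 held its highest value, 82.4 CPM. Ankrd37 was no longer counted as higher than in both without KO mouse 1, KO mouse 3 or WT mouse 1, with G1 cells alone, with a pseudocount of 5 CPM or with a minimum of 50 CPM. F7, coding for coagulation factor VII, averaged 20.5 ± 12.5 CPM against 8.86 and 4.47 CPM, from 328 UMIs in P3. Cxcl3, a neutrophil-attracting chemokine, ranged from 5.76 CPM in KO mouse 2 to 387 CPM in KO mouse 4, and 88.4% of its UMIs lay in values that were not whole numbers, so its level is uncertain. After each cell was thinned to 3000 UMIs, Arg1, Spp1 and Cxcl3 were still counted against both neighbours while Egln3, Ankrd37 and F7 were not, and Akap7, Chst11 and Nt5e were counted in their place. F7 was also lost with a pseudocount of 5 CPM and with a minimum of 50 CPM.

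The hypoxia and glycolysis list contains Egln3 and Ankrd37, 2 of the genes counted above both neighbours, so it is not independent of them. Of 24 genes measured, 2 (Egln3 and Ankrd37) were counted as higher than in P1-P2 and 21 had a mean above 0, with a median of 0.36 against 0.09 over all genes. Compared with P5, 5 were counted as higher (Egln3, Slc2a1, Vegfa, Ndrg1 and Ankrd37) and 24 of 24 lay above 0, with a median of 0.60 against -0.06. Without KO mouse 1, the medians were 0.30 and 0.62, and 20 and 24 genes lay above 0.

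Slc2a1, the glucose transporter GLUT1, stood at 455, 167, 200, 231, 159, 239 and 271 CPM in P3, with KO mouse 1 far above the rest. Means were 193 CPM in P1-P2 and 106 CPM in P5. Bnip3, which directs removal of mitochondria under low oxygen, averaged 116, 207 ± 67.1 and 124 CPM, and Ero1l, an oxidase of the endoplasmic reticulum, 76.8, 139 ± 51.3 and 73.6 CPM. Both had their highest mean in P3 and were above both neighbours in 7 of 7 mice, by less than the size counted. Pgk1, a glycolytic enzyme gene, averaged 281, 420 ± 163 and 269 CPM. Vegfa, the main angiogenic factor, had another shape, 658, 619 ± 112 and 282 CPM, and so did Hif1a, 366, 343 ± 77.5 and 169 CPM, with P3 near P1-P2. Among the 18 oxidative phosphorylation genes none was counted in either comparison, as for 95.2% of all genes, with medians of 0.09 and -0.07.

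**Figure D3:**
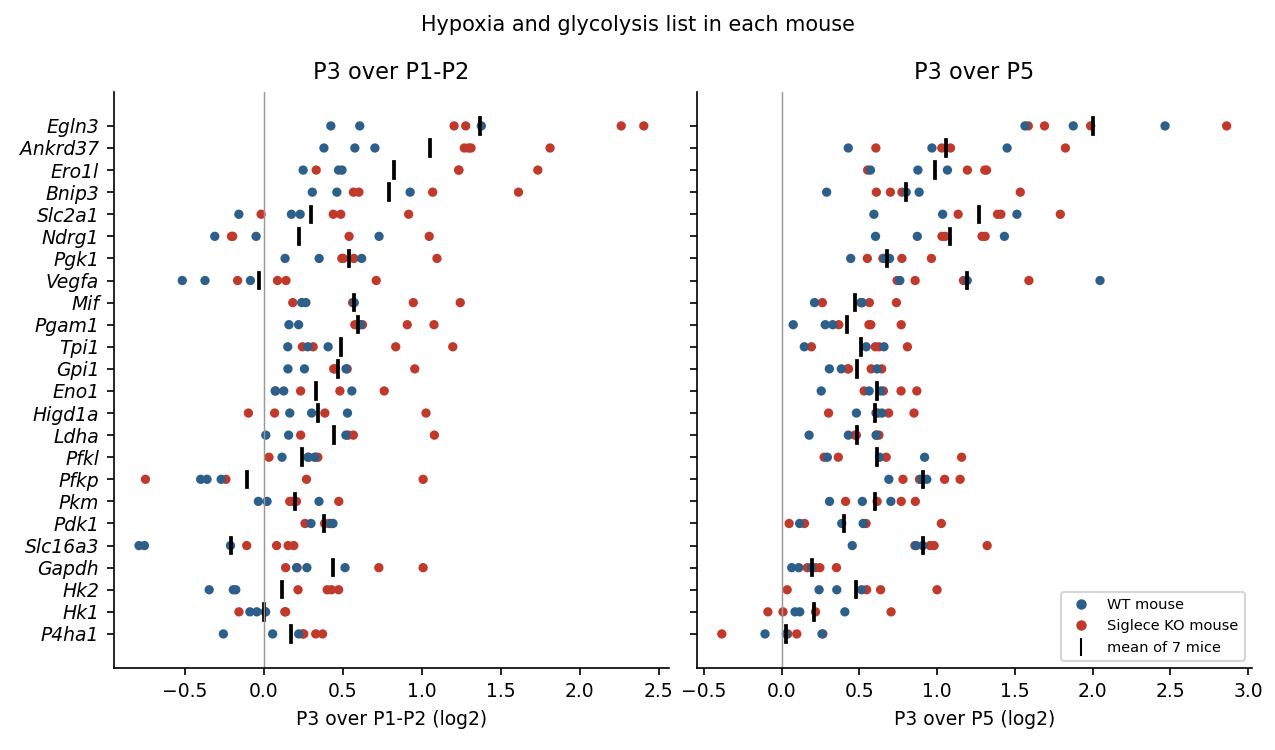
Log2 difference of P3 over P1-P2 (left) and over P5 (right) for the 24 hypoxia and glycolysis genes measured, with 1 point per mouse coloured by genotype and a black bar for the mean of 7 mice. Egln3 has the largest mean in both panels, all 24 bars lie above 0 against P5, and against P1-P2 21 of 24 do.

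Interferon genes went the other way. Isg15 stood at 235, 113, 345, 493, 754, 474 and 425 CPM in P3, below P1-P2 in every mouse. It averaged 955 CPM in P1-P2, 405 ± 205 in P3 and 303 in P5, a difference of -1.28 ± 0.23 against P1-P2. Cxcl10, a T cell-attracting chemokine induced by interferon, averaged 860, 227 ± 92.6 and 300 CPM. Of 30 genes on the list, 6 were counted as lower than in P1-P2 (Isg15, Ifit2, Ifi47, Mx1, Gbp5 and Cxcl10), 1 had a mean above 0, and the median was -0.78. Against P5 none was counted, and the median was 0.17. Ifit1 averaged 71.7, 40.7 ± 27.6 and 53.2 CPM, lower than in P1-P2 in 6 of 7 mice.

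Inflammatory genes showed the same step. Il1b, the gene of the cytokine interleukin-1 beta, stood at 3505, 1768, 2050, 3340, 2499, 1645 and 2124 CPM in P3 against a mean of 5661 in P1-P2 and 1150 in P5. It lay below P1-P2 and above P5 in every mouse. Of 18 genes of the inflammatory list measured against P1-P2, 10 were counted as lower (Il1a, Il1b, Il6, Nfkbia, Tnfaip3, Icam1, Nlrp3, Cd40, Ptgs2 and Clec4e) and none had a mean above 0, with a median of -1.06. Against P5, Il1b, Ptgs2 and Clec4e were higher and none lower. Acod1, coding for the enzyme that makes itaconate in activated macrophages, averaged 287, 78.8 ± 50.2 and 65.9 CPM. Saa3, an acute-phase protein gene, averaged 85, 26.3 ± 21.2 and 6.36 CPM and was at 0 in KO mouse 1.

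Of the 20 matrix and TGF-beta genes measured, 1 was counted against P1-P2 and 9 against P5. Fn1, coding for fibronectin, stood at 1196, 928, 497, 777, 892, 878 and 841 CPM in P3. Means across P1-P2, P3 and P5 were 888, 859 ± 207 and 168 CPM, with log2 differences of 0.01 ± 0.28 against P1-P2 and 2.39 ± 0.42 against P5. Thbs1, coding for thrombospondin 1, which activates latent TGF-beta, averaged 1742, 1454 ± 619 and 368 CPM. In the list, 8 were counted as higher than in P5 (Fn1, Thbs1, Vcan, F13a1, Mmp8, Mmp19, Timp1 and Plaur) and Timp2 as lower. Against P1-P2 only Vcan, the proteoglycan versican, was counted, as lower, by a log2 difference of -2.26 ± 0.81. Mmp12, the macrophage elastase gene, ranged from 14 CPM in WT mouse 1 to 794 CPM in KO mouse 1.

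The suppressive list was divided. Besides Arg1 and Spp1, the transmembrane glycoprotein gene Gpnmb (15.2, 51.0 ± 26.3 and 31.5 CPM) and the mannose receptor gene Mrc1 (25.1, 58.8 ± 37.9 and 124 CPM) were higher than in P1-P2, while Chil3, Il1rn and Ptgs2 were lower. Compared with P5, 8 were higher and Mrc1 and Cd72 lower. Cd274, coding for PD-L1, averaged 226, 170 ± 43.5 and 109 CPM and was counted in neither comparison.

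Among chemokine genes, Ccl7, which attracts monocytes, stood at 243, 63.6, 17.7, 357, 252, 120 and 220 CPM in P3 against a mean of 50.2 in P1-P2. Of the 14 measured genes of the chemokine and receptor list, Ccl7 was the only 1 counted as higher than in P1-P2. Cxcl3, given above as counted, is not on that list. Pf4, another chemokine gene, averaged 28.9, 171 ± 102 and 183 CPM but was higher in only 6 of 7 mice, KO mouse 3 being the exception at 16.8 CPM. Ccl8 and Ccl12, 2 monocyte attractants, and the fractalkine receptor gene Cx3cr1 were lower than in P5. Ccl12 averaged 112, 217 ± 127 and 658 CPM. Ccl6, Ccl9 and Ccr2 were higher than in P5.

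No MHC class II gene was counted between P3 and either neighbour. Of all 8354 genes, 95.2% were counted in neither comparison, so this does not set the class II genes apart. The same holds for the other lists of this paragraph without a counted gene. H2-Ab1 stood at 2899, 3778, 4661, 4030, 1250, 2611 and 3728 CPM in P3, with WT mouse 1 lowest, and averaged 3291, 3280 ± 1128 and 2554 CPM. Of the 9 class II genes measured against P1-P2, 5 lay above 0 with a median of 0.02, and against P5 8 of 8 lay above 0 with a median of 0.33. The 15 class I genes gave medians of -0.29 and 0.12 and no counted gene. In the lipid and phagosome list, Gpnmb alone was higher than in P1-P2 and Lpl alone lower than in P5. Apoe, the lipid carrier, averaged 8728, 13811 ± 4725 and 19690 CPM, with KO mouse 1 lowest in P3 at 4318 CPM. Of 18 lineage factor genes none was counted against P1-P2, where 5 lay above 0 with a median of -0.13. Against P5, Klf4, Nr4a1, Bhlhe40 and Hif1a were higher. Nr4a1, a nuclear receptor of monocytes, averaged 696, 416 ± 89.5 and 160 CPM.

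The share of cells in G1 was higher in P3 than in P5. Over 7 mice, 93.1% of P3 cells were assigned to G1 by the authors' phase column, against 95.2% of P1-P2 and 80.8% of P5, and the P3 share exceeded that of P5 in 7 of 7 mice and that of P1-P2 in 2 of 7. Mki67, a marker of cycling cells, averaged 48.9, 44.5 ± 27.6 and 96.9 CPM. Of 18 proliferation genes measured against P5, 4 were counted as lower (Mki67, Ccnb2, Birc5 and Stmn1). Against P1-P2, 4 of 15 were counted as higher (Birc5, Cdk1, Mcm6 and Ube2c). A gene could enter either comparison through 1 cell type alone, and could then hardly be counted as lower in that type. Of the 20 genes of the list, 8 were expressed highly enough to test between genotypes in P1-P2 and 17 in P3. With G1 cells alone, 133 and 279 genes were counted against P1-P2 and P5, compared with 148 and 299 over all cells. The per-mouse median mitochondrial share of UMIs averaged 1.72% in P3 and 2.67% in P5. It was lower in P3 in 7 of 7 mice, and its part in the differences was not tested. Against P1-P2, P3 cells had more UMIs and more genes in 7 of 7 mice. Means of the per-mouse medians were 7370 against 6123 UMIs and 2402 against 2131 genes. KO mouse 1 had the largest gap, 13940.5 against 8586 UMIs and 3425.5 against 2578 genes. Over the pooled cells of all mice, the medians were 6073 against 5730 UMIs. The mitochondrial share was higher than in P1-P2 (1.72% against 1.58%) in 6 of 7 mice. With cells thinned to the same depth, Egln3, Ankrd37 and F7 were no longer counted above both neighbours, as given above. The 14 dissociation stress genes had a median of -0.17 against P1-P2 and 0.43 against P5, with 14 of 14 above 0 against P5 and none counted in either.

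How often a P3 cell held a monocyte and a macrophage transcript depended on the pair of genes. Shares in this paragraph are pooled over the cells of all mice unless single mice are named, so mice with more cells weigh more. After thinning to 3000 UMIs per cell, which kept 1878 P3 cells, Ly6c2 and C1qa were found together in 51.8% of P3 cells, Ly6c2 alone in 15.3% and C1qa alone in 28.2%. In P5 16% held both and 82.6% C1qa alone. P1-P2 had 50.6% with both and 37.1% with Ly6c2 alone. Ccr2 and Ms4a7 were found together in 15.7% of P3 cells, 9.84% of P1-P2 and 10.5% of P5, and Chil3 and Ms4a7 in 16.9%, 12.5% and 5.30%. Free RNA can also give co-detection. In regulatory T cells, which should lack these macrophage genes, 3.20% held Ly6c2 and C1qa together, 3.04% Ccr2 and Ms4a7 and 0.480% Chil3 and Ms4a7. Singly, a UMI of C1qa was found in 27.4% of regulatory T cells, Ly6c2 in 9.28%, Ms4a7 in 6.08% and Chil3 in 5.12%. Arg1 was found in 62.8% of P3 cells, 27.1% of P1-P2 and 27.4% of P5, against 5.92% of regulatory T cells. Without thinning, these Arg1 shares were 69.1%, 32.5%, 34.5% and 8.03% at median depths of 6073, 5730, 6437 and 3376.5 UMIs. Ccr2 was found in 46.9% of thinned P3 cells, 52.6% of P1-P2 and 14.8% of P5, against 1.40% of B cells. Regulatory T cells, which can express Ccr2, had it in 46.9%, so B cells were set beside this gene. Without thinning, the Ccr2 shares were 62.1%, 66.7%, 22.5% and 3.10%, the B cells having a median of 7302 UMIs.

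Between mice, P3 varied about as much as its neighbours. The median SD of log2 CPM over mice was 0.247 for 2767 genes with at least 50 CPM in P3, compared with 0.262 in P1-P2 and 0.209 in P5. In P3, Inhba, coding for an activin subunit, ranged from 0 CPM in KO mouse 3 to 221 in KO mouse 4, and Slpi, a protease inhibitor gene, from 17.7 to 1039 CPM in the same mice. Igkc, an antibody gene, ranged from 1.00 CPM in WT mouse 1 to 226 CPM in KO mouse 4. The sum of the 6 B cell markers, which include Igkc, was also highest in KO mouse 4, at 270 CPM. The part of B cell RNA in this value was not tested. Inhba and Igkc were chosen for naming after their values were seen. By Xist and Y-linked genes, KO mice 1 and 2 and WT mouse 3 were female and the other 4 male.

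The design compared mice with and without the Sall1CreERT2 driver, which is meant to delete Siglece in the cells that express Sall1. All KO mice and no WT mice carried the driver, so the driver and the deletion cannot be told apart. For P3, 0 of 9713 genes (0%) passed an adjusted p of 0.05 between KO and WT in edgeR's quasi-likelihood test on UMIs summed per mouse. At an unadjusted p under 0.05 there were 526 genes (5.42%). DESeq2 called 6 genes, 4 of them higher in KO. The same test called 0 of 7972 genes (0%) in P1-P2, with 535 (6.71%) at an unadjusted p under 0.05 and 0 by DESeq2, and 2 of 10632 (0.0188%) in P5.

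The genes with the lowest p in P3 were not called by this test but did not overlap between genotypes. Over all genes tested, 3.08% had all KO mice above all WT mice and 3.35% all below. Cirbp, coding for a cold-inducible RNA-binding protein, stood at 68.7, 97.7, 101 and 46.9 CPM in the KO and 33.6, 34.6 and 22.1 CPM in WT mice. Its log2 change was 1.40 (SE 0.26, adjusted p = 0.657, edgeR). Gsr, coding for glutathione reductase, averaged 106 ± 13.5 CPM over 4 KO mice against 59.0 ± 6.45 CPM over 3 WT mice (SD), a change of 0.85 (SE 0.17). Dynll1, a dynein light chain gene, stood at 242, 204, 292 and 318 CPM in the KO against 501, 490 and 447 CPM in WT mice, a change of -0.85 (SE 0.19, adjusted p = 0.689, edgeR). The lowest p belonged to Gm42793, a predicted gene, at 24.0 ± 5.40 CPM in the KO and 58.2 ± 7.19 CPM in WT mice (log2 change -1.27, SE 0.20, edgeR adjusted p = 0.319). DESeq2 gave these 4 genes an adjusted p of 0.0123 (Cirbp), 0.0214 (Gsr), 0.0214 (Dynll1) and 0.00412 (Gm42793). Over 14 settings for each gene, the lowest adjusted p was 1.72e-06 for Cirbp, 0.0214 for Gsr, 0.0105 for Dynll1 and 5.35e-06 for Gm42793, and the highest was 1.00 for each.

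Cd3d, a subunit gene of the T cell receptor complex, stood at 9.51, 13, 14.1 and 9.38 CPM in the KO and 2.51, 3.64 and 4.28 CPM in WT mice (log2 change 1.66, SE 0.33, edgeR adjusted p = 0.657), from 98 UMIs in all. The sum of the 9 T cell markers given above, which includes Cd3d, was also higher in every KO mouse. The part of T cell RNA in the Cd3d value was not tested. Ch25h, coding for cholesterol 25-hydroxylase, an interferon-induced enzyme, averaged 5.96 ± 4.58 CPM in the KO and 20.2 ± 6.62 CPM in WT mice (log2 change -1.85, SE 0.42, edgeR adjusted p = 0.689). With no filter on low counts, edgeR gave Cd3d an adjusted p of 0.0465 and Ch25h 4.84e-05. Over all alternatives the highest was 1.00 for each.

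In several lists most members lay on 1 side of 0 in P3 without a called gene. All 9 MHC class II genes tested were above 0 in KO over WT, with a median of 0.59 against 0.01 over all genes. H2-Aa stood at 3303, 5875, 6363 and 5523 CPM in the KO and 1361, 3690 and 4660 CPM in WT mice. KO mice 2 to 4 exceeded all WT mice, KO mouse 1 did not, and WT mouse 1 was lowest. The change in H2-Aa was 0.68 (SE 0.40, edgeR adjusted p = 0.901). Without WT mouse 1 the list median was 0.24 with 8 of 9 above 0, and without WT mouse 3 it was 1.01, so it moved by more than 1.5 times with either mouse.

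Of the interferon genes, 4 of 30 were above 0, and the median was -0.49. It was -0.55 in P1-P2 and -0.38 in P5. The plasmacytoid dendritic cell marker sum given above was also lower in every KO mouse, and most of it is Bst2, a member of both lists. Its part in the interferon result was not tested. Bst2, coding for tetherin, which holds budding viruses at the cell surface, stood at 280, 390, 528 and 658 CPM in the KO and 962, 773 and 829 CPM in WT mice. All KO values lay below all WT values, and the change was -0.87 (SE 0.25, edgeR adjusted p = 0.867, and 0.00721 to 1.00 over the alternatives, the lowest with no filter on low counts). Isg15 averaged 296 ± 162 CPM in the KO and 551 ± 177 CPM in WT mice and overlapped. The median was -0.35 without KO mouse 1 and negative in 13 of 13 alternatives. Of the 16 maturation genes, 1 (Csf1r) was above 0, and the median was -0.38. C1qb averaged 3107 ± 346 CPM in the KO and 4070 ± 735 CPM in WT mice, a change of -0.39 (SE 0.19). The Siglec and inhibitory receptor list had 7 of 15 above 0 and a median of -0.03. Within it, Siglec1, coding for sialoadhesin, was lower in all 4 KO mice, at 43.3, 61.1, 63.6 and 61.3 CPM against 91.2, 68.8 and 73.2 CPM (log2 change -0.42, SE 0.17, edgeR adjusted p = 0.890). Cd33, a related receptor gene, had the opposite sign, at 112 ± 42.6 CPM in the KO and 77.6 ± 4.58 CPM in WT mice (log2 change 0.52, SE 0.23, edgeR adjusted p = 0.890).

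**Figure D4:**
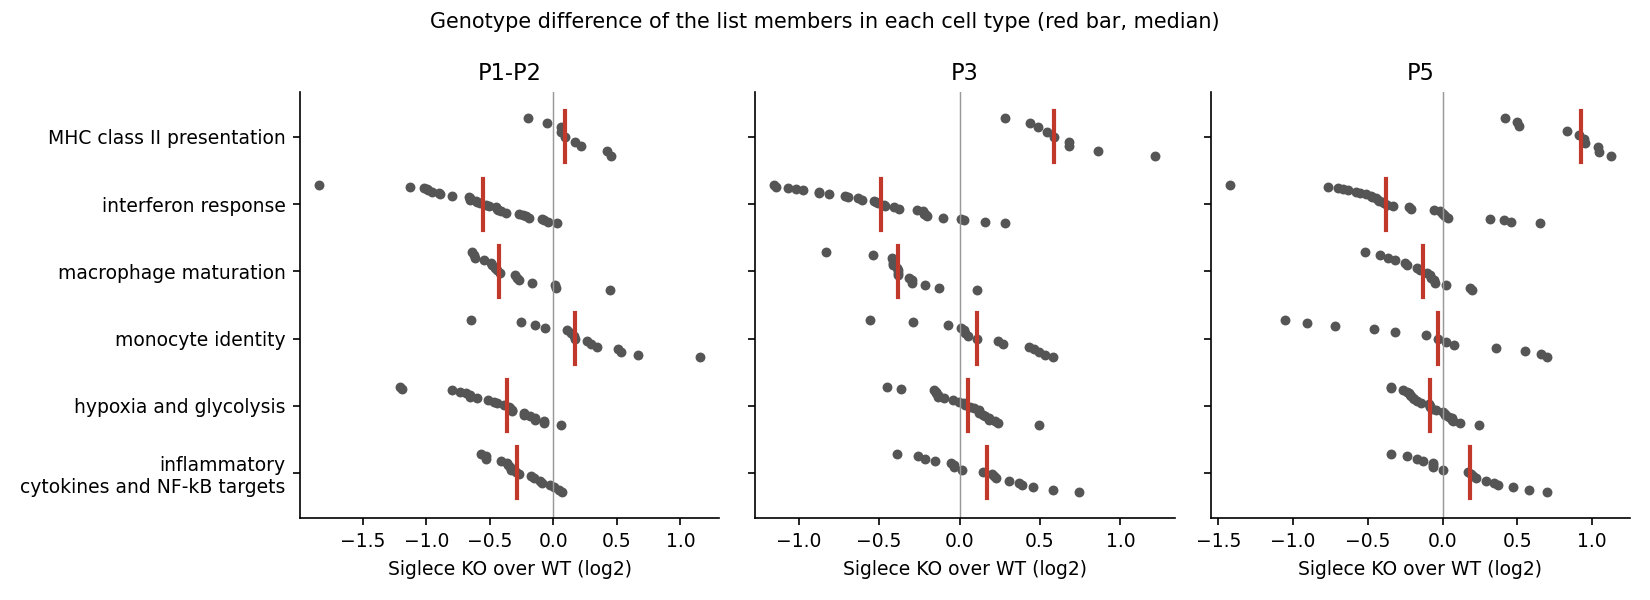
Log2 change of KO over WT mice from the edgeR fits for the members of 6 gene lists in P1-P2, P3 and P5, with 1 point per gene and a red bar for the list median. In P3 the 9 MHC class II genes lie above 0 and most interferon and maturation genes below 0, and no gene shown passed the adjusted threshold.

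Whether the genotype acted differently in P3 than in its neighbours was tested with an interaction term in a fit with a term for each mouse. Against P1-P2, 1 of 9341 genes (0.0107%) passed, the antibody gene Igkv1-135, and 509 (5.45%) had an unadjusted p under 0.05. Against P5, 0 of 11025 genes (0%) passed, and 614 (5.57%) had an unadjusted p under 0.05. The 24 hypoxia genes tested all had a positive interaction against P1-P2, with a median of 0.38. Egln3 was the largest at 1.10 (SE 0.32, edgeR adjusted p = 0.686, and 0.00605 to 1.00 over the alternatives). In P1-P2 Egln3 stood at 32.5, 21.9, 26.3 and 18.8 CPM in the KO and 36.1, 86.3 and 40.5 CPM in WT mice, and its P3 values are given above. The KO over WT median of the hypoxia list was -0.37 in P1-P2 and 0.05 in P3. Without WT mouse 1 the P3 median was -0.09, without KO mouse 1 it was -0.19 with 0 of 24 above 0, and the interaction median 0.25 with 23 of 24 above 0. MHC class II genes had an interaction median of 0.67, with 9 of 9 above 0 and none called, and it was 0.37 without WT mouse 1. Against P5 their interaction median was -0.46, with 2 of 10 above 0, and it was -0.20 without WT mouse 1 and -0.25 without KO mouse 4. The KO over WT median of the class II genes was 0.09 in P1-P2, 0.59 in P3 and 0.93 in P5, where 10 of 10 were above 0.

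P3 cells made up 4.54%, 6.75%, 2.87% and 4.35% of all cells in KO and 9.41%, 9.24% and 15.1% in WT mice. Every KO mouse lay below every WT mouse. The means were 4.63% ± 1.60 (SD, n = 4) and 11.2% ± 3.32 (SD, n = 3), a difference of -6.61 percentage points (two-sided exact permutation test, p = 0.0286, the smallest that 4 against 3 mice allow). Adjusted over the 6 shares tested, p was 0.0857 in the exact permutation test, above 0.05. Exact binomial 95% intervals for single mice, which cover counting error only, reached from 2.41% to 3.38% in KO mouse 3 and from 14% to 16.2% in WT mouse 3. P1-P2 and P5 cells also took smaller shares in KO mice, 2.62% against 10.1% and 8.81% against 19.1%.

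Among the cells named P1-P2, P3, P5 or proliferating macrophages, which leaves out the type named mo-DCs, P3 made up 19.3%, 33.1%, 31.0% and 29.1% in KO and 17.7%, 28.6% and 34.0% in WT mice, and the groups overlapped. The means were 28.1% ± 6.11 (SD, n = 4) and 26.8% ± 8.29 (SD, n = 3), with an exact permutation p of 0.714 (two-sided). Of all myeloid cells, P3 made up 14.3% in KO and 17.3% in WT mice on average, the opposite sign (exact permutation p = 0.429, two-sided). Without WT mouse 3 this sign turned, and the mean was 0.43 points higher in KO. Of the 7 mice, KO mouse 1 and WT mouse 1 had the lowest shares. A share of sorted cells depends on every other cell type in the library, so a lower share of all cells does not give a number of P3 cells per tumour.

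**Figure D5:**
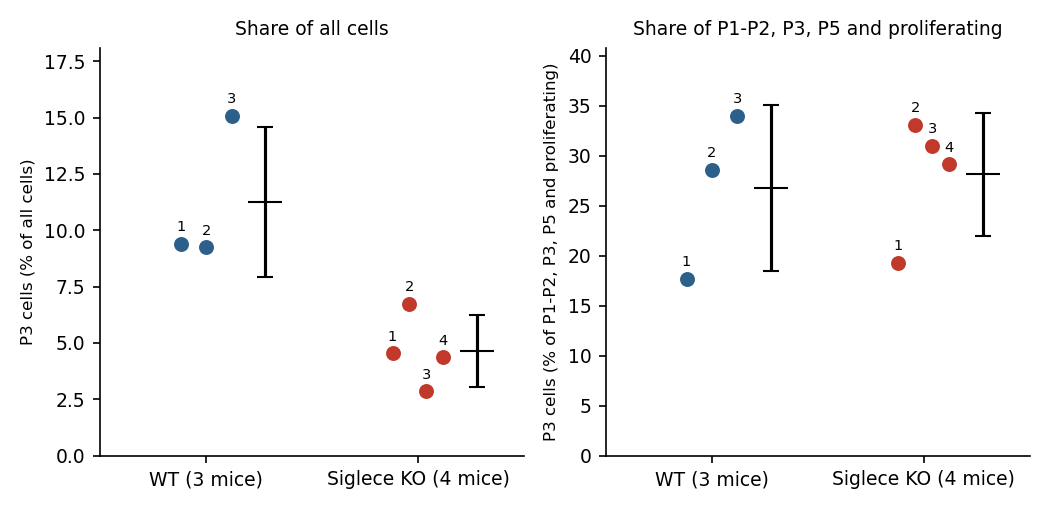
P3 cells as a percentage of all cells (left) and of the cells named P1-P2, P3, P5 or proliferating macrophages, without mo-DCs (right), with 1 numbered point per mouse and the mean ± SD of each genotype in black. The 4 KO mice lie below the 3 WT mice on the left, from 2.87% to 6.75% against 9.24% to 15.1%, and overlap them on the right.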

How the data were processed

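The deposited matrix holds expected counts (UMIs) for 55491 genes in 28644 cells from 7 mice, aligned to mm10 with STAR 2.7.10a and STARsolo after FastQC 0.11.5, per the submitters' processing notes. Some deposited values are not whole: 7.15% of non-zero values in P3. Cell type and cell cycle phase, and the deposited percent of mitochondrial reads, come from the authors' cell table. Embedding positions, scores that the authors deposited in the same table, were not used. The way doublets were treated is not given in the sources used here.

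UMIs were summed over the cells of 1 type in 1 mouse and rounded to whole counts for tests. Genotype tests used edgeR 4.0.16 (quasi-likelihood, TMM factors, filterByExpr, Benjamini-Hochberg adjustment over all genes tested), with DESeq2 1.42.0 as an alternative. They were run in R 4.3.3 and tested on simulated data. P3 sums held 946527 UMIs or more per mouse. Shares were compared with exact permutation tests over 35 divisions of the mice, with edgeR on cell counts as an alternative. Differences between cell types are means over 7 mice of log2 CPM plus 1 and carry no test. Each mouse is 1 library, so p-values measure the spread between mice. Named genes are the markers, Siglece, Sall1 and other Siglec genes, members of the gene lists, the 10 counted genes with the largest difference in each direction (at least 50 CPM in either cell type), those higher in P3 than in both neighbours, and the called genes or the 5 with the lowest p in each direction of each genotype test, of which the report gives a part. The members and lists were chosen with earlier results of these data known. Promoters are from RefSeq, and Arg1 is named without one. The alternatives tried were other pseudocounts, filters, scalings, thinning, G1 cells, whole values, equal cell numbers, a sex term, a replicate block and leaving out each mouse. Some results are not reported here.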

Additional observations from a re-analysis of the deposited data

Results flagged for a closer look

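Among 35 sets of 4 KO values examined, 3 held a mouse far from the other 3, where chance gives about 1 in 20. In P3, 10.9% of cells of KO mouse 1 were assigned to S phase, against 2.21% to 2.79% in KO mice 2 to 4. Ms4a7 stood at 402 CPM in KO mouse 4, against 117 to 141 CPM in the other KO mice. Ankrd37 stood at 82.4 CPM in KO mouse 1, against 17.0 to 27.5 CPM in the other KO mice.

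The genotype effect differed between P3 and P1-P2 for Igkv1-135, an antibody gene, by -6.42 on the log2 scale (SE 1.06, adjusted p = 0.043, edgeR interaction term). In P3 its UMIs came from 1 mouse, 160 in WT mouse 2. In P1-P2 it gave 30 UMIs in KO mouse 4, 1 in WT mouse 1 and 66 in WT mouse 2. The libraries of KO mouse 4 and WT mouse 2 held the most B cells, 273 and 357, and the part of B cell RNA in this value was not tested.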

How the results depend on the processing

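Of 1274 alternative values for the difference of single genes between cell types, 1267 moved by less than the SD over mice. Leaving out 1 mouse or changing the minimum CPM could not move a value that far. Much of this count was therefore fixed in advance, and it does not measure how firm the differences are. The count of genes different from P1-P2, 148, was 83 with a pseudocount of 5 CPM, 246 without a filter, 70 with at least 50 CPM and 143 to 194 when 1 mouse was left out. The count against P5, 299, was 142 with at least 50 CPM and 284 to 315 when 1 mouse was left out. With TMM factors 63 genes were higher and 94 lower than in P1-P2, and 168 and 126 than in P5. The split against P5 turned in other settings. It was 162 higher and 190 lower with thinned cells, 190 and 242 without a filter and 153 and 162 without KO mouse 1. Between genotypes, P3 had 6 calls with DESeq2, 33 without a filter and 0 to 2 when 1 mouse was left out. P1-P2 had 70 without a filter and 0 to 3 when 1 mouse was left out. P5 had 20 with DESeq2, 117 without a filter, 0 with equal cell numbers, 1 with whole values and 0 to 4 when 1 mouse was left out. The interaction calls were 33 without a filter and 0 to 1 when 1 mouse was left out against P1-P2, and 16 and 0 to 1 against P5. With the replicate number as a block, P3 had 3 calls, P1-P2 had 3 and P5 had 3. Mice with the same number deviated with correlations of -0.10, 0.15 and -0.26, and other pairs of 1 KO and 1 WT mouse with -0.27 to 0.34. The labels do not say whether the numbers pair mice, and 3 such correlations cannot settle it. The P3 share of the 4 monocyte and macrophage types (mo-DCs not included), 1.36 points higher in KO, was -0.30 without KO mouse 2 and -3.17 without WT mouse 1, in a range from -3.17 to 4.97. The P3 share of all cells ranged from -7.62 to -4.70. The Siglece change in P3 was 0.023 with a sex term and -0.21 to 0.11 when 1 mouse was left out, above 0 without KO mouse 1, KO mouse 2, WT mouse 1 or WT mouse 2. Its interaction against P5 was -0.41 to 0.012 when 1 mouse was left out. Igkv3-7, an antibody gene, had an interaction of -0.37 to 1.59 against P1-P2, the lowest without WT mouse 2. Igkv1-135 had -7.09 without KO mouse 2 (edgeR adjusted p = 0.0784). The cause was not tested.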
